A study of Mus musculus with 21 samples.

Results

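Mammary tumours of physically active MMTV-PyMT mice were compared with tumours of sedentary MMTV-PyMT mice, both taken at week 18. The comparison used the 6 libraries labelled with this tissue and week, out of 21 in the series. Each group held 3 libraries, numbered 1 to 3 and called biological replicates in the labels. All 19241 genes listed for these tumours were members of the comparison, and 18939 of them had a mean normalized count of at least 1 in either group and were tested. The other tumours of the series came from week 12, and the remaining libraries held sorted hematopoietic cells, which are not used here.

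Both groups carried the same transgene, in which the mouse mammary tumour virus (MMTV) promoter drives the polyoma middle T antigen (PyMT) in mammary epithelium, so active and sedentary mice alike formed tumours. The groups differed in treatment only, given as Physically active or Sedentary, and no tumour-free mammary gland was compared. The labels name no kind, length or dose of activity, and they do not say whether week 18 is the age of the mice. Tumour RNA was extracted with TRIzol and made into libraries with a stranded kit that selects polyadenylated RNA. A library therefore holds RNA of tumour epithelium mixed with that of fibroblasts, fat, vessels, immune cells and any adjoining muscle. In such bulk samples, fewer cells of a type and less RNA per cell cannot be told apart.

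PyMT tumours grow by signalling of middle T through Src and PI3 kinase, and as they enlarge their cells meet low oxygen. The factor HIF then pairs with its partner ARNT, binds DNA with the core letters ACGTG, and switches on genes for glycolysis, pH control, mitochondrial turnover and vessel growth. Dividing cells use other regulators: E2F factors act on genes of DNA replication, and a separate complex acts on genes of mitosis through an element with the core TTTGAA. Fat, which surrounds the mammary epithelium, gives bulk tumour RNA its adipocyte transcripts, and fibroblasts give it collagen and laminin transcripts.

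The promoters of 3 genes of low oxygen and glycolysis are shown. These genes were picked because they were higher in active tumours and hold the core that HIF binds. Their matches follow from that choice and do not show that HIF acted. Each window runs from 250 bases before to 50 bases after a RefSeq start site (build GRCm38.p6), 5′ to 3′ on the strand of the gene, with ACGTG and its reverse complement CACGT in capitals. The Ankrd37 window lies at chr8:45999801-46000100 on the minus strand and holds 2 matches. The Pgk1 window, chrX:106186850-106187149 on the plus strand, also holds 2. Of the 4 Ak4 windows, the one at chr4:101419453-101419752 on the plus strand holds 1 match, where both orientations overlap, and the other 3 hold none.
Ankrd37: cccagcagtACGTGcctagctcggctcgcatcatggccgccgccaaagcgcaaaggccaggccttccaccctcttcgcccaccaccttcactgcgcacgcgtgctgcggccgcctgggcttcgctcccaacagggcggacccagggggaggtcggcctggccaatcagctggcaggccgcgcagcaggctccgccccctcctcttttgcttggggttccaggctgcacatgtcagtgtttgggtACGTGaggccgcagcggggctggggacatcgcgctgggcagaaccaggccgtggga
Pgk1: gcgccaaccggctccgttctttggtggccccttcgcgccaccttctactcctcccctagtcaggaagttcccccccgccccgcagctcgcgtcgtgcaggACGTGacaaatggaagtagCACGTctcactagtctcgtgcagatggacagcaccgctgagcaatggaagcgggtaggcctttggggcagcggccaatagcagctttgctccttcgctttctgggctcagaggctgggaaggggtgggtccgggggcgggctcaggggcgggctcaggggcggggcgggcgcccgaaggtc
Ak4: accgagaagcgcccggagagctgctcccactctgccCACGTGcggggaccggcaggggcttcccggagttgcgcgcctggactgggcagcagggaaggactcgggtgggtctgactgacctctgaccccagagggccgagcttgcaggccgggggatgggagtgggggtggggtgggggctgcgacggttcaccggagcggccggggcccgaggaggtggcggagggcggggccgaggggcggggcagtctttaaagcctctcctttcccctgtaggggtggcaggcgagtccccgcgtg

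Matches to these letters were counted in the windows of whole lists, on both strands, in any window of a gene. ACGTG was found in 15 of the 20 hypoxia response genes that had a window (75%) and in 11 of 18 glycolysis genes (61.1%), against 27.3% of the 13111 tested genes with a window and 21.8% of all 27025 genes with one. The E2F letters TTTCGCGC, TTTGGCGC or TTTCCCGC were found in 12 of 25 DNA replication genes (48%), against 3.54% of the tested genes and 2.12% of all genes. TTTGAA was found in 21 of 28 mitosis genes (75%), against 15.3% of the tested genes and 20.2% of all genes. These matches describe the windows only and do not show a bound factor.

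The 6 libraries held 23401345 to 28973775 recovered reads. Markers of tumour epithelium were abundant in each: Krt8, a keratin of luminal cells, ranged from 19694 to 47792 normalized counts, and Epcam, an epithelial adhesion protein, from 16731 to 19140.0. Sedentary replicate 1 and active replicate 1 stood apart from the rest. Over 16049 genes, their Spearman correlations with any other library reached at most 0.954 and 0.955, whereas the other 4 libraries reached up to 0.985 with one another. Both had low scores for adipocytes, skeletal muscle, macrophages and MHC class II genes, where a score is the mean log2(value + 1) over a list. Results below are therefore also given without replicate 1 of both groups, which leaves 2 libraries against 2.

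**Figure D1:**
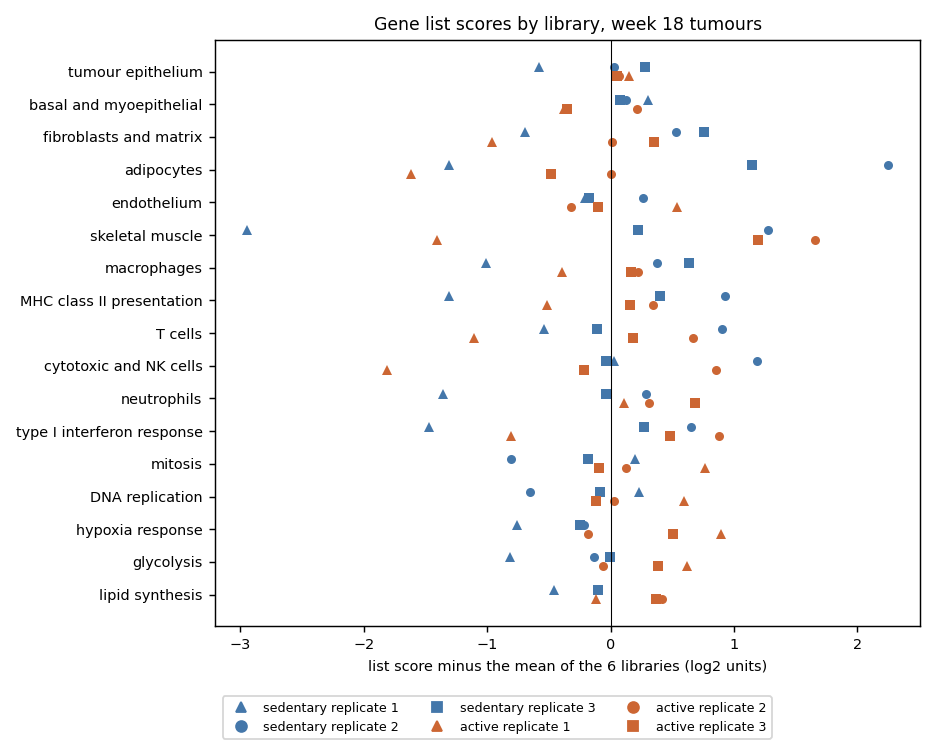
Scores of 17 gene lists in each week 18 tumour library, on the x axis as log2 units from the mean of the 6 libraries, with 1 point per library. Blue marks sedentary and orange active tumours, and the shape gives the replicate number. Replicate 1 of both groups (triangles) lies lowest for adipocytes, skeletal muscle, macrophages and MHC class II genes. The hypoxia response scores of active replicates 1 and 3 lie well above those of the 3 sedentary tumours, and active replicate 2 lies next to them.

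The comparison asked which transcripts set tumours of active mice apart from those of sedentary mice. No gene passed the threshold of limma (adjusted p under 0.05, 0% of 18939 genes), and 1131 genes had an unadjusted p under 0.05 (5.97%). edgeR on recovered reads called 0 genes, with 1116 at an unadjusted p under 0.05, and limma-voom called 0, with 1066. DESeq2 on the same reads gave an adjusted p to 16263 genes and called 52, of which 11 were higher (0.0676%) and 41 were lower (0.252%) in active tumours. All 52 had an unadjusted limma p under 0.05, which comes from the same 6 libraries and is no separate support. All 52 kept their direction without replicate 1 of both groups. For all but 1 of them the groups did not overlap, so that direction could not change. As limma, edgeR and limma-voom called 0 genes, the gene calls in the text below are calls of DESeq2 alone. The other genes are given by their values.

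The count of DESeq2 calls depended on single libraries and on pairing. It was 12 without active replicate 3, of which 8 were among the 52. It was 195 without active replicate 2, 153 without sedentary replicate 1 and 103 without sedentary replicate 3. Without replicate 1 of both groups it was 313, with 78 higher and 235 lower, and 30 of the 52 were among them. With the replicate numbers as pairs DESeq2 called 153 genes, 50 higher and 103 lower, of which 42 were among the 52. DESeq2 called 25 of the genes described below. Of these, 24 were also called with pairs (not Nme2) and 19 without replicate 1 of both groups. The 6 lost there were Ankrd37, Pgk1, Nme2, Prol1, Pcdhgb4 and Zbtb16, with adjusted p-values of 0.0825, 0.0564, 0.115, 0.299, 0.168 and 0.114. The 3 active values lay above all 3 sedentary values at 1142 genes (6.03%) and below them at 1434 genes (7.57%). Fold changes were above 0 at 51.1% of genes, with a median of 0.01 on the log2 scale.

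**Figure D2:**
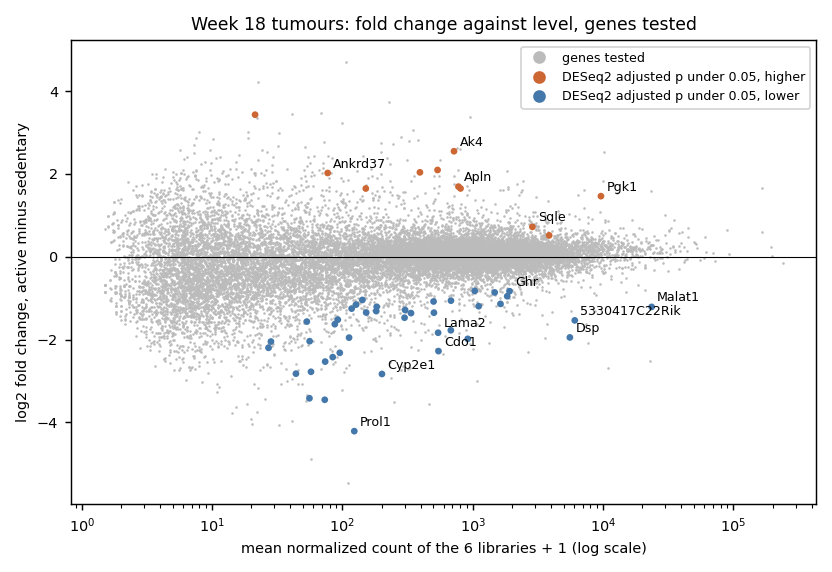
Log2 fold change of active over sedentary tumours (y axis, on the log2(value + 1) scale) against the mean normalized count of the 6 libraries plus 1 (x axis, log scale), 1 grey point per tested gene. Orange points are the 11 genes DESeq2 called higher and blue points the 41 it called lower. Malat1 is the most abundant of the called genes, and most of the called genes lie below the line at 0.

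Genes of the response to low oxygen were higher in active tumours, among them Ak4 and Ankrd37, both called by DESeq2. Of 28 tested genes of the hypoxia response list, 26 were higher and 9 were higher without overlap between groups, against 6.03% of all genes. The median log2 fold change of the list was 0.82, from -0.65 to 2.55, against 0.01 over all tested genes. No member passed limma. DESeq2 called 3 of the 28 higher, against 0.0676% of all genes given an adjusted p, and 0 lower, against 0.252%.

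Ak4, a mitochondrial adenylate kinase (chromosome 4, 101419277 to 101466995, plus strand, GRCm38), had 137, 197 and 290.5 normalized counts in sedentary replicates 1 to 3 and 1258, 754 and 1672 in active replicates 1 to 3. Every active tumour lay more than 2-fold above every sedentary one. The ratio of means was 5.90, with a log2 fold change of 2.55 ± 0.41 (SE), a limma adjusted p of 0.547 and a DESeq2 adjusted p of 3.22e-06. Ankrd37, an ankyrin repeat protein (chromosome 8, 45996902 to 46005707, minus strand), had 22, 30.4 and 33.7 counts in sedentary and 161, 75.2 and 135 in active tumours. The groups were again apart, and active replicate 2 was the lowest of the active tumours for both genes. Its log2 fold change was 2.02 ± 0.34, with adjusted p-values of 0.547 (limma) and 0.00353 (DESeq2).

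The log2 fold changes of Ak4 and Ankrd37 were 2.22 and 1.62 without replicate 1 of both groups. The list as a whole depended more on replicate 1. Scores of the hypoxia list were 9.17, 9.72 and 9.68 in sedentary and 10.82, 9.75 and 10.43 in active tumours. Active replicates 1 and 3 were high, active replicate 2 lay next to sedentary replicates 2 and 3, and sedentary replicate 1 was the lowest. Without replicate 1 of both groups the list median was 0.28, with 22 of 28 members higher. Over fits that each left out 1 library it ran from 0.58, without active replicate 1, to 1.18, without active replicate 2.

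Genes of glycolysis, the breakdown of glucose to pyruvate in the cytosol, gave a like picture. Of 19 tested genes, 17 were higher and 7 were higher without overlap, against 6.03% of all genes, with a median log2 fold change of 0.60. The median was 0.30 without replicate 1 of both groups and 0.36 without sedentary replicate 1. Pgk1, phosphoglycerate kinase (chromosome X, 106187100 to 106203699, plus strand), had 3546, 4950.2 and 6496 counts in sedentary and 19494, 7927 and 15430.0 in active tumours. All active values exceeded all sedentary values, and active replicate 2 was the nearest to them. It was the glycolysis gene that DESeq2 called (log2 fold change 1.46 ± 0.42, adjusted p 0.0426, limma adjusted p 0.824).

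Slc16a3, the lactate exporter MCT4, had 20.1, 128 and 162 counts in sedentary and 1202, 249 and 511 in active tumours, without overlap. Its spread within each group was wide, and its DESeq2 adjusted p was 0.0964. Without replicate 1 of both groups its log2 fold change went from 2.82 to 1.31, and DESeq2 called it (adjusted p 0.0455). With the replicate numbers as pairs DESeq2 did not call it (adjusted p 0.0827). Gapdh, glyceraldehyde 3-phosphate dehydrogenase, had 23859, 21601 and 25051 counts in sedentary and 66729, 29048 and 43035 in active tumours, a 1.97-fold ratio of means with a DESeq2 adjusted p of 0.218. The log2 fold changes of Pgk1 and Gapdh were 0.96 and 0.60 without replicate 1 of both groups. The pseudogene Pgam1-ps2 was also called higher by DESeq2 (adjusted p 0.0461). It resembles the glycolytic gene Pgam1 in sequence, so the split of reads between them is uncertain, and it was singled out after its values were seen.

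**Figure D3:**
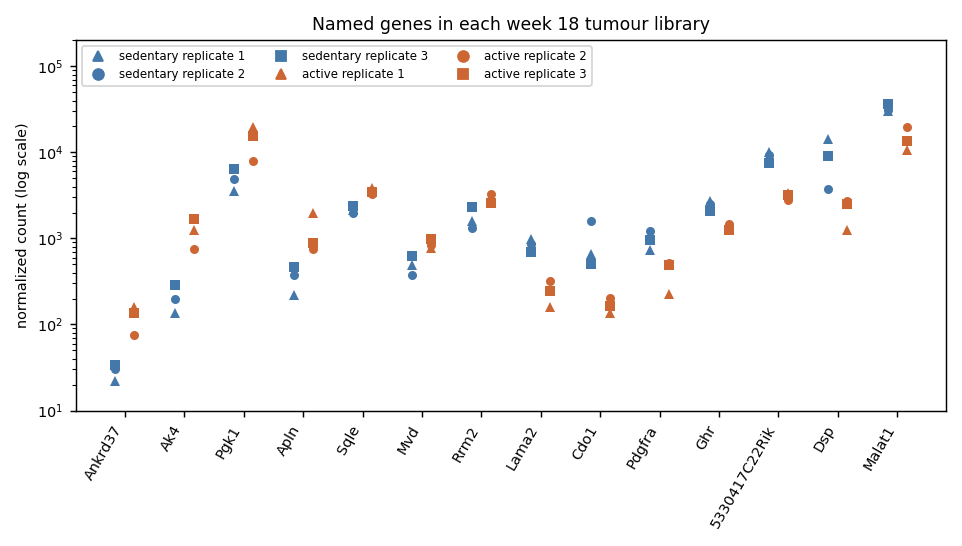
Normalized counts (y axis, log scale) of 14 named genes in each week 18 tumour library, 1 point per library, with sedentary tumours in blue, active tumours in orange and the replicate number as the shape. The 3 orange points lie above the 3 blue points for the first 7 genes, from Ankrd37 to Rrm2, and below them for the next 7, from Lama2 to Malat1.

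Genes with roles in vessels went in both directions. Apln, the peptide apelin of sprouting endothelial tip cells, had 220.2, 376 and 465 counts in sedentary and 1958, 752 and 890.5 in active tumours and was called higher by DESeq2 (log2 fold change 1.69 ± 0.47, adjusted p 0.0461, limma adjusted p 0.824). Esm1, a proteoglycan of tip cells, had 75.6, 74.9 and 45.6 counts in sedentary and 584, 115 and 203 in active tumours. Both genes were highest in active replicate 1. The DESeq2 adjusted p of Esm1 was 0.0803, or 0.0321 with the replicate numbers as pairs and 0.159 without replicate 1 of both groups. The log2 fold changes of Apln and Esm1 were 0.97 and 1.37 without replicate 1 of both groups.
Tek, the angiopoietin receptor of mature endothelium, was lower without overlap, with 178, 284 and 229 counts in sedentary and 84.3, 164 and 156 in active tumours (DESeq2 adjusted p 0.58). The 20 tested endothelial markers were split evenly, 10 higher and 10 lower, with a median of 0.01. It was -0.33 without replicate 1 of both groups, and ran from -0.27 to 0.14 in fits without 1 library.

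Sterol and fatty acid synthesis genes were higher by a smaller amount. Of 24 tested genes, 23 were higher and 7 were higher without overlap, against 6.03% of all genes, with a median log2 fold change of 0.51, and 0.52 without replicate 1 of both groups. Sqle, squalene epoxidase of the cholesterol pathway (chromosome 15, 59315077 to 59331192, plus strand), had 2159, 1964 and 2387 counts in sedentary and 3906, 3312 and 3499 in active tumours. The spread within each group was small beside the gap between them. It was called by DESeq2 (log2 fold change 0.72 ± 0.16, adjusted p 0.00570, limma adjusted p 0.747).

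Mvd, mevalonate diphosphate decarboxylase of the same pathway, had 491, 373 and 624 counts in sedentary and 781, 844 and 983 in active tumours. Its groups did not overlap, and DESeq2 did not call it (adjusted p 0.181). List scores were 10.99, 11.34 and 11.34 in sedentary and 11.33, 11.86 and 11.81 in active tumours, so active replicate 1 lay at the level of the upper 2 sedentary tumours.

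Fold changes of cell division genes were small and of 1 sign. All 34 tested mitosis genes and all 31 tested DNA replication genes had fold changes above 0, with medians of 0.56 and 0.31, against 51.1% of all genes above 0. In each list 2 genes were higher without overlap, a share near the 6.03% over all genes, no member of either was called by limma or DESeq2, and without replicate 1 of both groups the medians were 0.50 and 0.32. Members of such a list are transcribed in the same dividing cells, so they are not independent measurements.

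Rrm2, the ribonucleotide reductase subunit that supplies DNA precursors, had 1586, 1313 and 2333 counts in sedentary and 3113, 3292 and 2572 in active tumours. Tk1, thymidine kinase of S phase, had 994, 659.8 and 1026 against 2429, 1068 and 1593 counts. The groups were apart for both, although the lowest active Tk1 value was close to the highest sedentary one. DESeq2 adjusted p-values were 0.288 and 0.397, and with the replicate numbers as pairs Tk1 was called (adjusted p 0.0475). Without replicate 1 of both groups DESeq2 did not call Tk1 (adjusted p 0.406).
Mybl2, a regulator of mitotic genes, had 539, 239.8 and 553 against 956, 591 and 598 counts, and Ube2c, a ubiquitin conjugase of mitotic exit, had 1689, 804 and 1515 against 2618, 1779.9 and 1738. In both, sedentary replicate 2 was the lowest library and active replicate 1 the highest. Mitosis scores were 10.42, 9.42 and 10.04 in sedentary and 10.99, 10.35 and 10.13 in active tumours, with sedentary replicate 1 above active replicates 2 and 3. The list median was 0.25 without sedentary replicate 2 and 0.77 without sedentary replicate 1, and that of DNA replication ran from 0.08, without active replicate 1, to 0.54, without sedentary replicate 1.

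Nuclear genes of oxidative phosphorylation and ribosomal protein genes were higher by small amounts. Of 25 nuclear genes of oxidative phosphorylation, 24 were higher, 4 of them without overlap, against 6.03% of all genes, with a median of 0.19, or 0.12 without sedentary replicate 3. Cycs, cytochrome c, had 1793, 1845 and 1923 counts in sedentary and 2618, 2318 and 2702 in active tumours (DESeq2 adjusted p 0.105). Of the 15 tested genes of the mitochondrial genome, 5 were higher, with a median of -0.07, or -0.16 without replicate 1 of both groups. All 28 ribosomal protein genes were higher, with a median of 0.18, and 2 of them were higher without overlap, a share near the 6.03% over all genes. Their scores were 14.56, 14.03 and 14.09 in sedentary and 14.39, 14.36 and 14.45 in active tumours, so sedentary replicate 1 was the highest library. The median was 0.36 without sedentary replicate 1, 0.09 without sedentary replicate 2 and 0.35 without replicate 1 of both groups. Rps6, a protein of the small ribosomal subunit, had 24208, 20047 and 19189 counts against 25441, 24464 and 25118. Nme2, a nucleoside diphosphate kinase, was called by DESeq2, with 3166, 3005 and 3367 against 4529, 4280.3 and 4824 counts (adjusted p 0.0315, or 0.195 with the replicate numbers as pairs). Its close relative Nme1 is similar in sequence, so its count is uncertain. Protein coding genes with the shortest transcripts were mostly higher in active tumours, as given with transcript length below. The part of length in these 2 lists was not tested.

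Most fibroblast and matrix genes had lower values in active tumours. Of 22 tested fibroblast and matrix genes, 19 were lower and 4 were lower without overlap, against 7.57% of all genes, with a median log2 fold change of -0.45, and -0.56 without replicate 1 of both groups. Over fits that each left out 1 library the median ran from -0.88, without sedentary replicate 1, to -0.09, without active replicate 1. Scores were 10.30, 11.52 and 11.75 in sedentary and 10.03, 11.00 and 11.34 in active tumours, so replicate 1 was low in both groups. No member was called by limma or DESeq2 over 6 libraries.

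Lama2, a laminin chain of basement membranes (chromosome 10, 26980036 to 27619758, minus strand), had 973, 855 and 697 counts in sedentary and 160.2, 324 and 243 in active tumours. The lowest sedentary value was more than 2-fold the highest active one. It was called by DESeq2 (log2 fold change -1.83 ± 0.31, adjusted p 0.000163, limma adjusted p 0.547). Ltbp4, a matrix protein that stores latent TGF-beta, had 1404, 1288 and 1959 against 585, 803 and 628 counts (DESeq2 adjusted p 0.00384). Lama2 and Ltbp4 were chosen after their values were seen, as were all genes called by DESeq2 that fall outside the naming rule.

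Pdgfra, the platelet-derived growth factor receptor of fibroblasts, had 732, 1232 and 963 counts in sedentary and 229, 511 and 486 in active tumours, a log2 fold change of -1.31 ± 0.39. Lum, the collagen-binding proteoglycan lumican, had 908, 1958 and 1299.7 against 654, 808 and 798 counts. Col6a1, a chain of collagen VI, had 3722, 5081 and 4929 against 2438, 3111 and 3254 counts. The groups did not overlap for any of these 3, and replicate 1 was the lowest library of its group each time. Their DESeq2 adjusted p-values were 0.134, 0.319 and 0.236 over 6 libraries. All 3 were called without replicate 1 of both groups (0.000162, 0.00747 and 0.00475), and with the replicate numbers as pairs Pdgfra and Col6a1 were called (0.000441 and 0.0457).

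Fat cell markers had the lowest median of the 50 lists. Of 22 tested adipocyte genes, 21 were lower, the median log2 fold change was -1.50, and it was -1.98 without replicate 1 of both groups, with 22 of 22 lower. No member was free of overlap over 6 libraries, where sedentary replicate 1 had a low adipocyte score, and no member was called by limma or DESeq2. Scores were 6.90, 10.46 and 9.35 in sedentary and 6.60, 8.21 and 7.73 in active tumours. Car3, carbonic anhydrase 3 of adipocytes, had 483, 10515 and 7097 against 317, 2356 and 1676 counts (DESeq2 adjusted p 0.707, or 0.00233 with the replicate numbers as pairs and 2.03e-12 without replicate 1 of both groups). The list median was -0.54 without sedentary replicate 2 and -2.61 without sedentary replicate 1.

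Further genes with roles in fat or lipid metabolism that belong to none of the lists were called by DESeq2, and they were picked from its calls after their values were seen, except that the naming rule also gave Cdo1, Acss3 and Cyp2e1. Cdo1, cysteine dioxygenase, had 665, 1604 and 499 counts in sedentary and 136, 205 and 165 in active tumours, a log2 fold change of -2.28 ± 0.47 with an adjusted p of 0.000596. Acss3, an acyl-CoA synthetase of mitochondria, had 82.3, 203 and 90.2 against 13.5, 31.5 and 16.0 counts (adjusted p 0.00504). Both were highest in sedentary replicate 2, the tumour with the highest adipocyte score. Sedentary replicate 1, with a low adipocyte score, also lay above every active tumour.
Cyp2e1, a cytochrome P450 expressed in liver and fat, had 46.9, 571 and 485 against 22.9, 40.2 and 36.5 counts, and here sedentary replicate 1 lay close to the active tumours (adjusted p 0.00749). Gpat3, which makes lysophosphatidic acid for triglyceride, had 64.1, 136 and 70.4 against 15.6, 21 and 24.1 counts (adjusted p 0.00848). Slc27a1, a fatty acid transporter, had 2156, 2119 and 2421 against 1354, 883 and 866 counts (adjusted p 0.00560). For Slc27a1 the 3 sedentary tumours were alike. The part of adipocyte content in the lower values of these genes was not tested.

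The smallest DESeq2 adjusted p, 8.25e-13, belonged to 5330417C22Rik, now named Elapor1, a transmembrane protein of the endosome and lysosome system (chromosome 3, 108455694 to 108536536, minus strand). It had 10099, 9414 and 7606 counts in sedentary and 3352, 2795 and 3159 in active tumours, a log2 fold change of -1.54 ± 0.18 with a limma adjusted p of 0.545. The ratio of the means was 2.91, and the lowest sedentary value was more than 2-fold the highest active one. Fits that each left out 1 library gave log2 fold changes from -1.66 to -1.45.

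Ghr, the growth hormone receptor, had 2741, 2521 and 2109.6 counts in sedentary and 1417, 1467 and 1241 in active tumours (log2 fold change -0.83 ± 0.17, DESeq2 adjusted p 0.00384). Its groups were narrow and apart. Btn1a1, butyrophilin of the milk fat globule, had 1944, 2262 and 2020.4 against 359, 1201 and 267 counts, and Erbb4, a receptor of the epidermal growth factor family that acts in lactation, had 514, 411 and 302 against 63.5, 286 and 67.7.
In both, active replicate 2 lay nearer to the sedentary tumours than the other 2 active ones. DESeq2 adjusted p-values were 0.151 for Btn1a1 and 0.419 for Erbb4, and with the replicate numbers as pairs they were 0.000424 and 0.0341. Without replicate 1 of both groups they were 0.676 and 0.617.
Muc15, a membrane mucin of the milk fat globule, was higher without overlap, with 3534, 10404 and 9879.8 against 12341, 13424 and 12679 counts (DESeq2 adjusted p 0.699). Its log2 fold change was 0.84, or 0.36 without replicate 1 of both groups. Gata3, the luminal transcription factor, overlapped, with 4686, 5325 and 5680.5 against 3473, 4404 and 5192 counts. The 13 tested genes of the hormone response list were 4 higher and 9 lower (median -0.28), and the 16 of the milk and secretory list 9 higher and 7 lower (median 0.24). The hormone median was -0.56 without replicate 1 of both groups and 0.16 without sedentary replicate 2. That of the milk and secretory list was -0.08, with 5 of 16 higher, without replicate 1 of both groups and -0.34 without sedentary replicate 1. Tumour epithelium markers had a median of 0.15 and basal and myoepithelial markers -0.28, with no member free of overlap. Leaving out 1 library brought the first to -0.01, without sedentary replicate 1, and the second to values from -0.51 to -0.11.

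Dsp, desmoplakin of the desmosome, had 14122, 3715 and 9154 counts in sedentary and 1247, 2695 and 2484 in active tumours and was called by DESeq2 (log2 fold change -1.95 ± 0.58, adjusted p 0.0252). The sedentary tumours differed widely, and sedentary replicate 2 lay nearest to the active group. The log2 fold change was -1.17 without replicate 1 of both groups. Runx1, a transcription factor of blood and of mammary epithelium, had 2235, 2929 and 2118 against 1465, 1245 and 1046 counts (adjusted p 0.0161). Zbtb16, a transcription factor that glucocorticoids induce, had 124, 185 and 87.2 against 33.3, 50.7 and 38.3 counts (adjusted p 0.0260). Per1, a clock gene that glucocorticoids also induce, had 3199.7, 3184 and 1796 against 1178, 1176 and 1736 counts, with sedentary and active replicate 3 nearly equal (adjusted p 0.171). The 14 genes of the glucocorticoid list were 7 higher and 7 lower, with a median of -0.19, or 0.03 without sedentary replicate 2.

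The largest negative log2 fold changes under the naming rule belonged to Prol1 and Otos, which had few counts in active tumours. Prol1, a proline-rich secreted protein, had 199, 488 and 22.8 counts in sedentary and 4.16, 18.4 and 2.67 in active tumours (log2 fold change -4.21 ± 1.27, DESeq2 adjusted p 0.00466). Otos, otospiralin, had 11.5, 267 and 19.8 against 1.04, 7.87 and 1.78 counts. In both, sedentary replicate 2 held most of the counts. Hoxb6, a homeobox factor, Cyp2s1, a cytochrome P450, and Frem1, a basement membrane protein, had log2 fold changes of -2.72, -2.55 and -2.27, and their DESeq2 adjusted p-values were 0.0803, 0.21 and 0.287. With the replicate numbers as pairs DESeq2 called Otos, Hoxb6 and Cyp2s1 (adjusted p 0.000424, 0.0304 and 0.0177). Without replicate 1 of both groups it called Otos (adjusted p 0.00169) but neither Hoxb6 nor Cyp2s1 (0.488 and 0.632). Hoxb6, Cyp2s1 and Frem1 had log2 fold changes of -2.01, -1.90 and -1.03 without replicate 1 of both groups. Pcdhga12 and Pcdhgb4, adhesion proteins of the gamma protocadherin cluster, were called by DESeq2, with log2 fold changes of -2.42 and -2.32 and adjusted p-values of 0.0162 and 0.0211. Genes of that cluster share their last exons, so reads may be split between them and both values are uncertain.
In the opposite direction, the rule also named Dlx3, a homeobox factor of epidermis and placenta, with 0.957, 8.10 and 20.8 against 293, 39.3 and 43.7 counts. A4galt, a glycosphingolipid galactosyltransferase, and Slc16a12, a creatine transporter, had log2 fold changes of 2.33 and 2.00. None of these 3 was called by DESeq2 (adjusted p 0.117, 0.343 and 0.348). In all 3, sedentary replicate 1 was the lowest library. Without replicate 1 of both groups the log2 fold changes of Dlx3, A4galt and Slc16a12 were 1.59, 1.20 and 1.35, and without sedentary replicate 1 alone those of A4galt and Slc16a12 were 1.38 and 1.22.

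Most tested long noncoding genes and provisional gene models had lower values in active tumours, whereas pseudogenes were split evenly. Of 1750 tested long noncoding genes in the GENCODE M21 annotation, 531 were higher (30.3%), with a median log2 fold change of -0.35, and 38 were higher and 233 lower without overlap. Provisional gene models, the GENCODE class TEC that still awaits experimental evidence, were further down, with 131 of 697 higher (18.8%), a median of -0.67, and 9 higher and 156 lower without overlap. Of 662 pseudogenes, 49.7% were higher, with a median of 0.00, and 48 were higher and 49 lower without overlap. Over all tested genes, 6.03% were higher and 7.57% lower without overlap. Protein coding genes had 55.2% higher and a median of 0.04. The medians of the long noncoding, provisional and protein coding classes were -0.22, -0.46 and 0.01 without replicate 1 of both groups.

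Mean log2(value + 1) over the provisional models was 3.70, 3.57 and 3.64 in sedentary and 2.73, 3.23 and 2.96 in active tumours, and over long noncoding genes 4.02, 4.13 and 3.94 against 3.48, 3.87 and 3.72. Active replicate 2 lay nearest to the sedentary tumours in both classes, and the groups did not overlap. Malat1, an abundant noncoding RNA kept in the nucleus (chromosome 19, 5795690 to 5802672, minus strand), had 30038, 31225 and 36771 counts in sedentary and 10549, 19598 and 13443 in active tumours. It was called by DESeq2 (log2 fold change -1.21 ± 0.27, adjusted p 0.0161, limma adjusted p 0.747). Gm12940, a noncoding gene of unknown role, had 281, 272 and 214 against 108, 110.2 and 109.6 counts (DESeq2 adjusted p 0.000359).

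**Figure D4:**
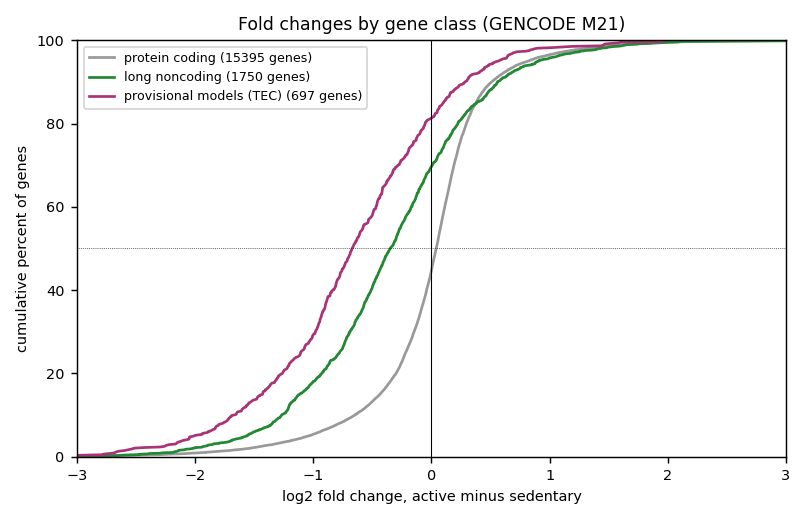
Cumulative percent of genes (y axis) by log2 fold change of active over sedentary tumours (x axis) for 3 gene classes of GENCODE M21, 1 line per class. The lines cross 50% at -0.67 for provisional models (TEC), -0.35 for long noncoding genes and 0.04 for protein coding genes.

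Median fold changes fell with transcript length, though the libraries of a group were not alike. The 14114 protein coding genes with a mean of at least 10 were sorted by the length of their longest annotated transcript and divided into 5 bins of nearly equal size. From the shortest to the longest bin, median log2 fold changes were 0.14, 0.08, 0.05, 0.01 and -0.05, and the percent of genes higher went from 69.6 to 42.0. The first and last bins had medians of 0.14 and -0.08 without replicate 1 of both groups. Median deviations from the gene mean of the 6 libraries were compared between these bins. They went from -0.10 to 0.08 and from -0.07 to 0.04 in sedentary replicates 2 and 3. In active replicates 1 and 3 they went from 0.10 to -0.05 and from 0.09 to -0.05. Sedentary replicate 1 (0.009 to -0.009) and active replicate 2 (0.011 to -0.003) changed little. Bins by GC content of the same transcripts had medians between 0.03 and 0.06, and without replicate 1 of both groups their medians went from 0.05 in the lowest GC bin to -0.04 in the highest. The part of transcript length in the results of single genes, gene lists and gene classes was not tested.

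**Figure D5:**
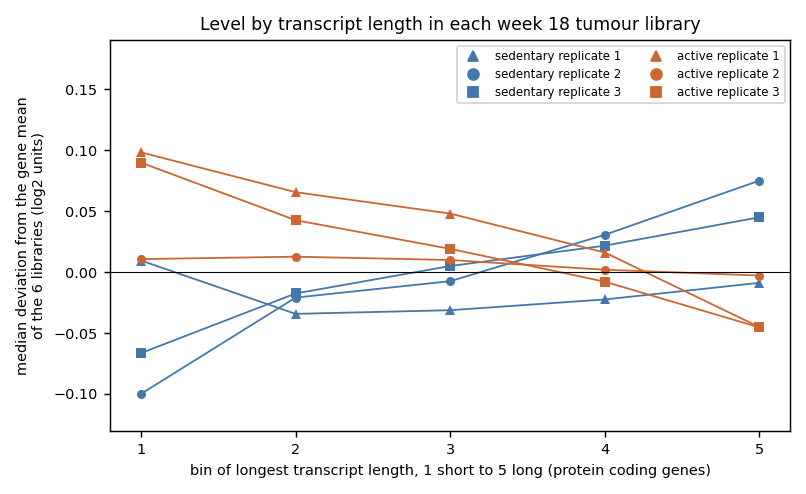
Median deviation of a gene from its mean over the 6 libraries (y axis, log2 units) in 5 bins of protein coding genes from short to long transcripts (x axis), 1 line per library, sedentary in blue and active in orange. The lines of active replicates 1 and 3 descend and the lines of sedentary replicates 2 and 3 climb, while sedentary replicate 1 stays between -0.03 and 0.01 and active replicate 2 close to 0.

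Immune genes gave few differences that stood clear of the spread. Pglyrp1, a peptidoglycan-binding protein of neutrophil granules, had 425, 241 and 513 counts in sedentary and 1665, 867 and 1125 in active tumours and was called higher by DESeq2 (log2 fold change 1.65 ± 0.39, adjusted p 0.0151, limma adjusted p 0.753). S100a8, a calcium-binding protein abundant in neutrophils, had 11.5, 45.5 and 46.6 against 79.1, 90.0 and 197 counts. Its DESeq2 adjusted p was 0.289, or 0.0494 with the replicate numbers as pairs and 0.0904 without replicate 1 of both groups. Of the 27 genes of the neutrophil list, 17 passed the filter on low values, and 12 of these were higher, 5 without overlap, against 6.03% of all genes tested. Their scores were 3.88, 5.52 and 5.20 in sedentary and 5.35, 5.55 and 5.92 in active tumours, so the groups overlapped. Their median was 0.51, and it was -0.01 without sedentary replicate 1 and 0.93 without sedentary replicate 2. Without replicate 1 of both groups it was 0.46, with 13 of 17 higher.

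Ptgs2, the inducible cyclooxygenase of prostaglandin synthesis, had 12.4, 104 and 52.5 counts in sedentary and 488, 113 and 416 in active tumours, apart by a narrow margin (DESeq2 adjusted p 0.122). Msr1, a scavenger receptor of macrophages, had 73.7, 147 and 169.5 against 479, 221 and 275 counts, and Ccl2, a chemokine that draws monocytes, had 26.8, 103 and 149.7 against 176, 221 and 187. Both were free of overlap, with DESeq2 adjusted p-values of 0.239 and 0.669. The log2 fold changes of Ptgs2, Msr1 and Ccl2 were 2.75, 1.32 and 1.36, and without replicate 1 of both groups 1.54, 0.64 and 0.71. The macrophage list of 28 genes was nevertheless 15 higher and 13 lower, with a median of 0.09, -0.23 without sedentary replicate 1 and -0.32 without replicate 1 of both groups.

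T cell, cytotoxic and antigen presentation lists overlapped between groups. The 23 T cell genes had a median of -0.21 and the 17 tested cytotoxic and NK cell genes -0.74, and no member of either was free of overlap. Cytotoxic scores were 3.94, 5.09 and 3.87 in sedentary and 2.10, 4.76 and 3.69 in active tumours, where active replicate 1 was the low one. The 2 medians were 0.01 and -0.10 without replicate 1 of both groups, and both turned positive, 0.35 and 0.15, without active replicate 1 alone. Tnfrsf9, a costimulatory receptor of activated T cells, was higher without overlap, with 9.57, 25.3 and 19.8 against 112, 35.8 and 48.1 counts, and Vsir, an inhibitory ligand of myeloid cells, was lower, with 1111, 1481 and 1339 against 868, 1029 and 1009.9. DESeq2 called neither (adjusted p 0.293 and 0.495), and the log2 fold change of Tnfrsf9 was 1.72, or 0.86 without replicate 1 of both groups.

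All 16 MHC class I genes were above 0, with a median of 0.46 (0.30 without sedentary replicate 1), and 22 of 24 type I interferon genes, with a median of 0.38, and no member was free of overlap. H2-K1, a class I heavy chain, had 18388, 37975 and 22010.0 counts in sedentary and 40970.0, 47581 and 33634 in active tumours (DESeq2 adjusted p 0.616). Sedentary replicate 1 had the lowest interferon score, 8.41 against 9.08 to 10.76 in the other 5 tumours, and without it the median was -0.26. Without replicate 1 of both groups the interferon median was 0.19, with 20 of 24 higher, and without active replicate 1 it was 0.89. Skeletal muscle genes showed the same dependence. All 25 were above 0 with a median of 1.04, sedentary replicate 1 scored 4.64 against 6.18 to 9.25 elsewhere, and without it the median was -0.18. Without replicate 1 of both groups the muscle median was 0.69, with 23 of 25 higher, and without active replicate 1 it was 2.05.

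A few further genes fell under the naming rule of their lists. Igfbp3, which binds insulin-like growth factors, had 1083, 2871 and 2169 counts in sedentary and 4575, 3513 and 3278 in active tumours. Psat1, an enzyme of serine synthesis, had 2589.8, 1486 and 2649 against 3157, 3599 and 4480.0. Lgr5, a receptor for R-spondins that marks epithelial stem cells, had 41.2, 92.1 and 83.3 against 22.9, 33.2 and 27.6, and Itga2b, an integrin of platelets, had 377, 158 and 141 against 94.7, 76.9 and 119. The groups did not overlap for any of these 4, and DESeq2 called none of them (adjusted p 0.468, 0.424, 0.268 and 0.397). Igfbp3 and Itga2b had log2 fold changes of 0.99 and -1.08, or 0.44 and -0.63 without replicate 1 of both groups.

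At week 12, the same contrast gave other values for these genes, and the difference between the weeks was tested with limma over all 12 tumours. Of 19241 genes, 2 passed the threshold (0.0104%), with 1217 at an unadjusted p under 0.05, and neither was a gene named above. Gm16534, a predicted gene, had 15.3, 16.2 and 18.8 counts in sedentary and 6.24, 6.12 and 8.02 in active tumours of week 18, and its log2 fold change was -1.19 at week 18 and 1.30 at week 12 (adjusted p of the difference 0.0392). The other, Isl1, had at most 1 read in any week 18 tumour. Both were singled out after their values were seen.

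The lowest adjusted p of the difference among genes that the naming rule or DESeq2 gave was 0.206. Of the 52 genes DESeq2 called at week 18, 19 had the same direction at week 12. The matching share over all tested genes is not given here. Called genes of opposite direction at week 12 included Ak4 (log2 fold change -0.99), Ankrd37 (-0.30), Pgk1 (-0.51) and Sqle (-0.13). Lama2 (0.50), Cdo1 (0.93), 5330417C22Rik (0.08) and Malat1 (0.45) were also opposite. Called genes of the same direction included Apln (0.65), Pgam1-ps2 (0.50), Pcdhgb4 (-1.27) and Gm12940 (-0.63). List medians of opposite sign at week 12 included -0.14 for hypoxia response, -0.28 for glycolysis, -0.18 for mitosis and -0.02 for lipid synthesis. Those of adipocytes (1.11) and of fibroblasts and matrix (0.22) were also opposite. Week 12 medians of the same sign included 0.43 for neutrophils, 0.10 for ribosomal proteins, 0.05 for oxidative phosphorylation and -0.65 for basal and myoepithelial markers. The median of the provisional models was 0.07 and that of long noncoding genes 0.10, and the medians by transcript length ran from -0.04 to 0.02.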

How the data were processed

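RNA was sequenced in 3 sedentary and 3 active tumours of week 18. The authors deposited a normalized signal per gene, and per the labels the values come from DEBrowser. Per the submitters' processing notes the genome build was mm10, and the aligner and the counter are not given in the sources used here. Within a library all values were whole multiples of 1 step, and whole reads came out for 100% of values (tolerance 0.01). In sedentary replicate 3 this step was 0.991, which lies too near 1 to be checked formally. The deposited fold changes and p-values were not used.

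In R 4.3.3, limma 3.58.1 (lmFit, eBayes) was run on log2(value + 1), keeping a gene if the mean of either group reached 1, with Benjamini-Hochberg adjustment and a threshold of 0.05. Fold changes are on that scale and understate changes of low genes. Recovered reads were tested with edgeR 4.0.16 (quasi-likelihood) and DESeq2 1.42.0 as alternatives, and with limma-voom. DESeq2 gave no adjusted p to 2676 genes. The procedure was tested on simulated data. Symbols were matched to GENCODE M21, 18870 of 19241, for class, position and length, and promoter windows came from RefSeq.

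Genes were named by a rule: the 10 largest fold changes in each direction among genes with an unadjusted limma p under 0.05, no overlap and a higher group whose mean reached 50, genes called by both edgeR and DESeq2 (there were none), and up to 3 members of each of 50 lists without overlap. A few genes that the rule named are not reported here. The members of the comparison, the lists and the rule were chosen with earlier results of these data known. P-values measure the spread between these samples, called biological replicates in the labels. Two-sided exact permutation of 3 against 3 cannot go below 0.1, so none is given.

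Deviations of libraries from their group means correlated across 16049 genes at 0.185, 0.201 and 0.189 for the 3 same-numbered pairs, and at -0.168 to 0.040 for other pairs. The same-numbered pairs passed the threshold of 0.1, so fits with the replicate numbers as pairs are given beside the others. This does not establish that the samples are paired. The main limma fit and the 52 DESeq2 calls used no pairs. The labels do not say what the numbers share.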

Additional observations from a re-analysis of the deposited data

Results flagged for a closer look

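Slc16a3 and Muc15 went in opposite directions at the 2 weeks, with every active tumour above every sedentary one at week 18 and below at week 12. The log2 fold changes of Slc16a3 were 2.82 at week 18 and -1.454 at week 12, and those of Muc15 were 0.84 and -0.8267. In limma over all 12 tumours the difference between weeks did not pass the threshold for either, with adjusted p-values of 0.456 and 0.731.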

How the results depend on the processing

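The limma count of 0 was also 0 under other scalings (median of ratios, TMM, upper quartile), stricter filters, pseudocounts of 5 and 10, trend and robust options, edgeR, limma-voom and the fit of all 12 tumours. It was 1 with no filter on low values, 1 at an adjusted p under 0.1, 5 with a pseudocount of 0.1, and 0 to 5 in fits without 1 library, where the 5 came without sedentary replicate 1. DESeq2 called 52, and its count in fits without 1 library ran from 12 to 195. Without replicate 1 of both groups, an alternative chosen after seeing the data as were the DESeq2 fits without 1 library, limma and edgeR called 0 (1662 and 1780 at an unadjusted p under 0.05) and DESeq2 313. With the replicate block, limma called 0 (1404 unadjusted), edgeR 0 (1220 unadjusted) and DESeq2 153; the block changed no call of limma or edgeR. The count of genes whose difference changed between weeks was 2, and 0 to 23 in fits without 1 library, the 23 without active replicate 1 of week 18. Of 1134 recomputed values of 63 named genes, 0 reversed and 25 passed the threshold, all 25 under DESeq2. The naming rule favoured genes without overlap between groups, and the direction of such a gene cannot change when libraries are left out. Of 750 recomputed medians of the 50 lists, 738 moved by less than the spread between libraries. Depth limits genes of few counts such as Otos and Dlx3.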
